A study of Mus musculus with 12 samples.

Results

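The striatal cascade that turns dopamine and adenosine signals into cyclic AMP and phosphorylated DARPP-32 was examined through 10 genes, Gnal, Gng7, Rgs9, Adcy5, Prkar2b, Ppp1r1b, Arpp21, Arpp19, Pde10a and Pde1b. They were chosen by name as the Golf, adenylyl cyclase 5, DARPP-32 and phosphodiesterase genes of spiny neurons, and all 10 were found among the 57132 features of the count table. RNA had been sequenced from the striatum of mice of 10 months on the C57Bl/6 background, 6 carrying a knockout of the trace amine-associated receptor 5 gene (TAAR5-KO) and 6 wild-type (WT) littermates. The tissue was a coronal slice from which the cortex had been cut away, so it held every cell type of the striatum, and both sexes entered each group. Animals were untreated as far as the labels say, and the deleted bases of Taar5 are not given in the sources used here. The study asked how loss of TAAR5 changes gene expression in the striatum.

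Spiny projection neurons make up most of the striatum. In them, dopamine at D1 receptors and adenosine at its Adora2a receptor act through the G protein Golf, built from an alpha subunit (Gnal), a beta subunit and a gamma subunit (Gng7), to switch on adenylyl cyclase 5 (Adcy5). The cyclic AMP that is made frees the catalytic subunits of protein kinase A from regulatory subunits such as RII-beta (Prkar2b), and the kinase then phosphorylates DARPP-32 (Ppp1r1b), which in that form inhibits protein phosphatase 1. Phosphodiesterases (Pde10a, Pde1b) break cyclic nucleotides down, and RGS9 shortens the signal of inhibitory G proteins.

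Libraries held between 11269915 and 34824450 counts, of which 64.3% to 88.1% lay on ribosomal RNA, leaving 1819907 to 6399188 counts per library for all other genes. Taar5 did not bear out the labels, with 1 to 6 counts in each library labelled TAAR5-KO and 0 to 2 in those labelled WT. Counts this low cannot tell the genotypes apart, so genotypes are given here as labels. The libraries are numbered NK1 to NK6 (labelled TAAR5-KO) and NK7 to NK12 (labelled WT), and no number is tied to an animal or a sex. NK11, labelled WT, was the lowest of the 12 libraries for 9 of the 10 cascade genes, and values that it moves are therefore given with and without it. Levels are given as CPM, counts scaled to a library of 1000000 after adjustment of library sizes by trimmed means of M values (TMM).

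All 10 genes were measured well above the filter, with 94 to 4034 counts per gene and library. Per kilobase of merged exons, the scale on which genes of unequal length can be compared, Ppp1r1b had the highest mean level over the 12 libraries, 11.6 ± 1.91 CPM per kilobase (SD, n = 12), followed by Arpp19 at 11.4 ± 1.55. Ppp1r1b was above Arpp19 in 7 of 12 libraries, so their order is not clear. Gng7 came next at 8.69 ± 1.25 CPM per kilobase and was below Arpp19 in 11 of 12 libraries, and Pde10a at 8.0 ± 1.63 was below Gng7 in 9 of 12. Pde1b at 6.69 ± 1.06 CPM per kilobase was below Pde10a in 12 of 12 libraries. Gnal (5.95 ± 0.79), Adcy5 (5.72 ± 0.90) and Arpp21 (5.46 ± 0.91) formed a middle group in CPM per kilobase, each of the first pair above the next gene in 8 of 12 libraries, and Gnal was below Pde1b in 10 of 12. Prkar2b at 3.49 ± 0.53 and Rgs9 at 3.30 ± 0.81 CPM per kilobase were the lowest, both below Arpp21, and Prkar2b exceeded Rgs9 in 6 of 12 libraries. The genes for the phosphatase inhibitor and the gamma subunit were measured at higher levels per length than the cyclase and the alpha subunit they work with.

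None of the 10 genes passed the comparison between the labelled genotypes (likelihood ratio test of edgeR, Benjamini-Hochberg adjusted p under 0.1), in which 229 of 13902 features (1.65%) passed (0.957% higher in the libraries labelled TAAR5-KO). The count was also 0 of 10 with the quasi-likelihood test (0.453% of features), with DESeq2 (1.27%) and without NK11 (0.616%). With TMM factors all 10 genes had a higher fitted level in the libraries labelled TAAR5-KO, where 48.9% of all features did, and the median of their log2 fold changes was 0.22, compared with −0.01 for all 13902. An unadjusted p under 0.05 was reached by 6 of the 10, all higher, where 6.38% of all features were higher at that level, and the count was also 6 with the quasi-likelihood test and with DESeq2. This count of 6 was not stable across settings. It was 4 with ribosomal RNA features removed, 2 with no filter and 1 with the ribosomal RNA share as a covariate. With library size alone it was 0, and it ran from 2 to 6 with each library left out. The direction did not hold for all genes without NK11, when 8 of 10 were higher against 49.1% of all features, the median was 0.16, and 2 of 10 (Rgs9 and Arpp19) had an unadjusted p under 0.05 against 4.91% higher. This direction depended on the scaling, since with library size alone and no TMM factors all 10 genes were below 0, with a median of −0.31 compared with −0.49 for all features, and 7 features in all were called. For 0 of the 10 genes did the groups separate, as they did for 1.01% of all features. The study built coexpression modules on these same libraries, and 5 of the 10 genes (Gnal, Pde10a, Arpp19, Arpp21 and Adcy5) are in its modules tied to TAAR5-KO, so the direction of those 5 is not independent of that choice.

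**Figure D1:**
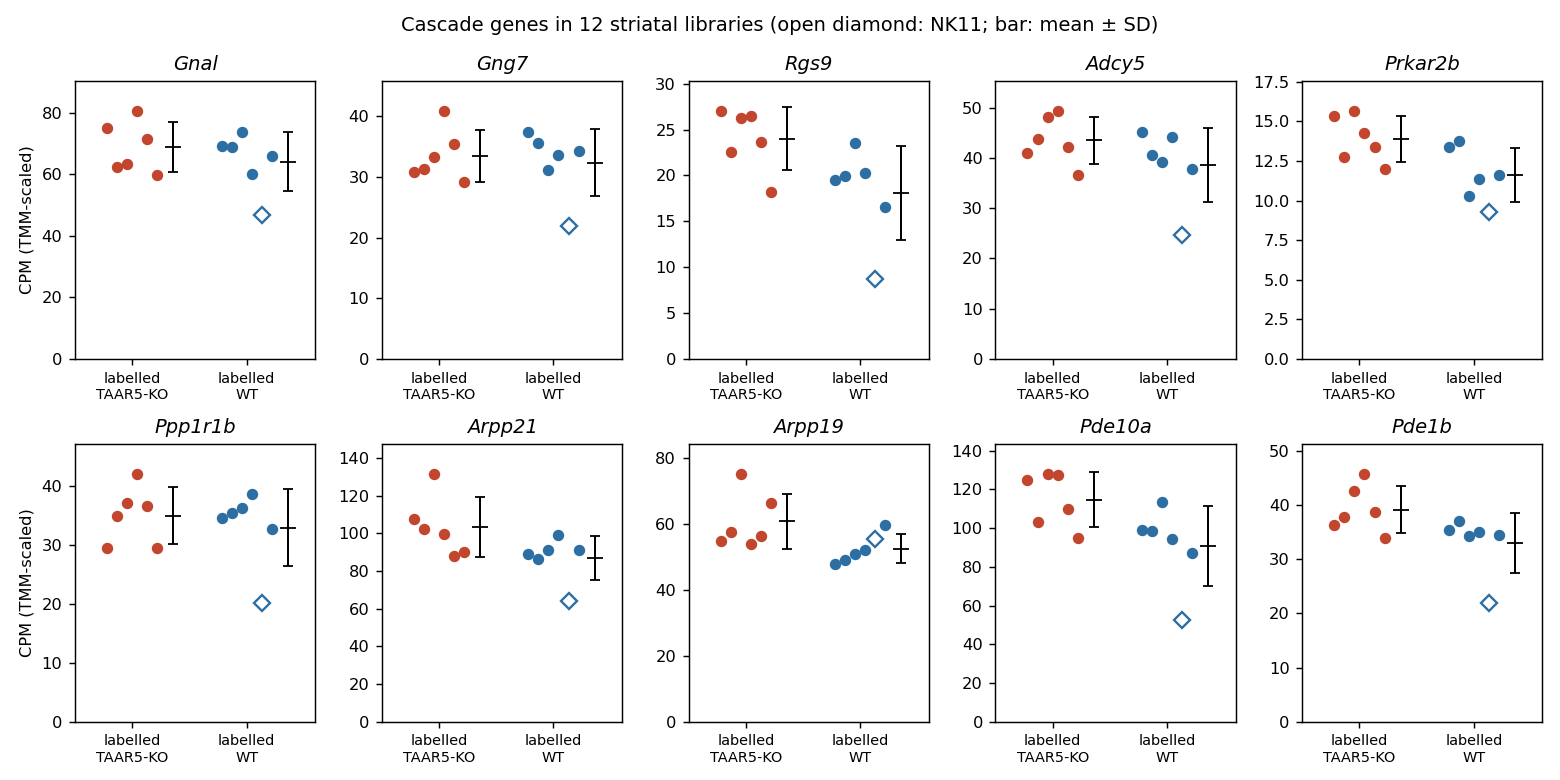
Level of each cascade gene in CPM (vertical axis, from 0) in the 6 libraries labelled TAAR5-KO (red) and the 6 labelled WT (blue), with the mean ± SD beside each group and NK11 as an open diamond. NK11 was the lowest of the 12 libraries for 9 of the 10 genes, and the groups overlapped for every gene.

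The subunits of the G protein differed by less than the errors of their fold changes. Gnal (ENSMUSG00000024524.18), the alpha subunit that couples the D1 and Adora2a receptors to the cyclase, ran from 59.9 CPM at the lowest through a median of 67.4 to 80.6 at the highest in the libraries labelled TAAR5-KO, and from 46.7 through 67.4 to 73.6 in those labelled WT. The medians were equal at this precision, NK11 was the lowest and NK4, labelled TAAR5-KO, the highest. Its log2 fold change was 0.10 ± 0.12 (SE), with an adjusted p of 0.791 (edgeR), and it was 0.02 ± 0.11 without NK11. Gng7 (ENSMUSG00000048240.16), the gamma subunit found with this alpha subunit in spiny neurons, lies on chromosome 10 of GRCm39 from 80784458 to 80850779 on the minus strand. It ran from 29.1 CPM through a median of 32.3 to 40.9 in the libraries labelled TAAR5-KO and from 21.9 through 34.0 to 37.5 in those labelled WT, so the median was lower and the mean (33.5 ± 4.23 against 32.3 ± 5.52 CPM, SD, n = 6 each) higher in the former. Its log2 fold change of 0.05 ± 0.12 (adjusted p = 0.930, edgeR) turned to −0.05 ± 0.10 without NK11 and to −0.02 without NK4, the 2 libraries at the ends of its range. The 95% interval of Gng7 over 12 libraries ran from −0.20 to 0.29, and that of Gnal from −0.13 to 0.33.

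Rgs9 had the largest fold change of the 10. RGS9 speeds up the hydrolysis of GTP on inhibitory G proteins and so shortens signals of the D2 receptor in spiny neurons, and its gene (ENSMUSG00000020599.14) lies on chromosome 11 of GRCm39 from 109116181 to 109188955 on the minus strand. It ran from 18.1 CPM through a median of 25 to 27.0 in the libraries labelled TAAR5-KO and from 8.74 through 19.8 to 23.6 in those labelled WT. The groups overlapped, but 4 of the 6 libraries labelled TAAR5-KO were above every library labelled WT, and 5 were above the WT median. NK11, at 8.74 CPM, stood at 43.7% of the mean of the other 5 libraries labelled WT. The log2 fold change of Rgs9 was 0.41 ± 0.17 (SE), with a 95% interval from 0.08 to 0.75, an unadjusted p of 0.0161 and an adjusted p of 0.275 (edgeR). Without NK11 the log2 fold change was 0.27 ± 0.12, with an unadjusted p of 0.0261 and an adjusted p of 0.442, and the sign did not change.

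Adcy5 (ENSMUSG00000022840.10) encodes the cyclase that makes most of the cyclic AMP in spiny neurons and lies on chromosome 16 from 34975247 to 35126108 on the plus strand. Its level ran from 36.6 CPM through a median of 43.0 to 49.4 in the libraries labelled TAAR5-KO and from 24.6 through 39.9 to 45.1 in those labelled WT. Only NK3 and NK4 exceeded every library labelled WT, and NK11 alone lay below all libraries labelled TAAR5-KO. A log2 fold change of 0.17 ± 0.13 (adjusted p = 0.639, edgeR) was fitted, and 0.07 ± 0.10 without NK11. Downstream of it, Prkar2b (ENSMUSG00000002997.16, chromosome 12 from 32008475 to 32111295, minus strand), a regulatory subunit that holds protein kinase A inactive and ties it to anchoring proteins, ran from 12.0 CPM through 13.8 to 15.7 in the libraries labelled TAAR5-KO and from 9.29 through 11.5 to 13.8 in those labelled WT. All 6 libraries labelled TAAR5-KO were above the WT median and 3 were above every library labelled WT. Its log2 fold change was 0.24 ± 0.11 (unadjusted p = 0.0310, adjusted p = 0.351, edgeR) and 0.17 ± 0.11 without NK11 (unadjusted p = 0.108).

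Among the 3 substrates of protein kinase A, Ppp1r1b (ENSMUSG00000061718.13, chromosome 11 from 98239230 to 98248622, plus strand) encodes DARPP-32, the point at which dopamine and glutamate signals meet in these neurons. It ran from 29.4 CPM through a median of 35.7 to 42.1 in the libraries labelled TAAR5-KO and from 20.1 through 34.9 to 38.6 in those labelled WT. Apart from NK11, the libraries labelled WT lay between 32.7 and 38.6 CPM, inside the range of the other group. The log2 fold change of 0.09 ± 0.14 (adjusted p = 0.863, edgeR) was −0.02 ± 0.11 without NK11, with a 95% interval from −0.23 to 0.19.

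Arpp21 (ENSMUSG00000032503.19, chromosome 9 from 111894159 to 112065006, minus strand) encodes RCS, which binds calmodulin once phosphorylated. It ran from 88.0 CPM through 101 to 132 in the libraries labelled TAAR5-KO and from 64.3 through 90.0 to 99.3 in those labelled WT. In 4 of the 6 libraries labelled TAAR5-KO it was above every library labelled WT, with NK3 the highest. The log2 fold change was 0.25 ± 0.12 (unadjusted p = 0.0404, adjusted p = 0.391, edgeR) and 0.18 ± 0.11 without NK11 (unadjusted p = 0.129). Arpp19 (ENSMUSG00000007656.15, chromosome 9 from 74944896 to 74967595, plus strand) encodes an inhibitor of protein phosphatase 2A that is found in most tissues. It ran from 53.9 CPM through 57.1 to 75.3 in the libraries labelled TAAR5-KO and from 47.7 through 51.6 to 59.6 in those labelled WT. It was the exception for NK11, which at 55.3 CPM was 107% of the mean of the other libraries labelled WT, while NK7 was the lowest. All 6 libraries labelled TAAR5-KO lay above the WT median and 2 above every library labelled WT. Arpp19 was also the only one of the 10 whose log2 fold change grew without NK11, from 0.21 ± 0.10 (unadjusted p = 0.0426, adjusted p = 0.400, edgeR) to 0.22 ± 0.11 (unadjusted p = 0.0462).

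The phosphodiesterases were both on the higher side. Pde10a (ENSMUSG00000023868.18, chromosome 17 from 8744204 to 9205480, plus strand) breaks down cyclic AMP and cyclic GMP and is known for its high level in spiny neurons. It ran from 94.7 CPM through a median of 117 to 128 in the libraries labelled TAAR5-KO and from 52.5 through 96.5 to 113 in those labelled WT. In 3 of the 6 libraries labelled TAAR5-KO it was above every library labelled WT, and NK11 stood at 53.3% of the mean of the other libraries labelled WT. For Pde10a the log2 fold change was 0.34 ± 0.15 (unadjusted p = 0.0237, adjusted p = 0.324, edgeR) and 0.22 ± 0.12 without NK11 (unadjusted p = 0.0568). Pde1b (ENSMUSG00000022489.7, chromosome 15 from 103411461 to 103438479, plus strand), an enzyme switched on by calcium and calmodulin, ran from 33.9 CPM through 38.2 to 45.8 in the libraries labelled TAAR5-KO and from 22 through 34.7 to 37.0 in those labelled WT. Apart from NK11, the libraries labelled WT kept within 34.3 to 37.0 CPM, and 4 of the 6 labelled TAAR5-KO were above that span. For Pde1b the log2 fold change was 0.25 ± 0.12 (unadjusted p = 0.0421, adjusted p = 0.398, edgeR) and 0.15 ± 0.10 without NK11 (unadjusted p = 0.131).

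**Figure D2:**
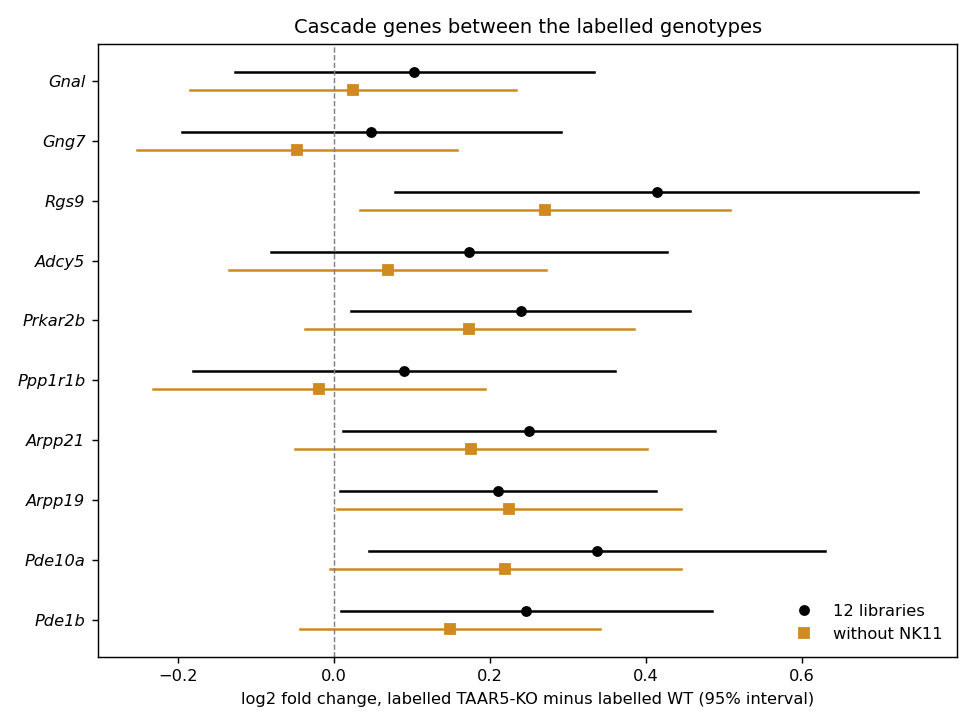
Log2 fold change of each cascade gene, labelled TAAR5-KO minus labelled WT (horizontal axis), with 95% intervals from the edgeR fit, over 12 libraries (black) and without NK11 (orange). Over 12 libraries the intervals of Gnal, Gng7, Adcy5 and Ppp1r1b included 0, and without NK11 those of Rgs9 and Arpp19 alone did not.

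How far a single library reached into these values could be read from the ranks. NK11 was the lowest of the 12 libraries for 9 of the 10 genes, where it was the lowest for 7.76% of all features tested. For these 9 genes its level was between 43.7% (Rgs9) and 77.0% (Prkar2b) of the mean of the other 5 libraries labelled WT. NK4 was the highest library for 5 genes (Gnal, Gng7, Adcy5, Ppp1r1b and Pde1b), NK3 for 4 (Prkar2b, Arpp21, Arpp19 and Pde10a) and NK1 for Rgs9. The deviation of each gene was taken from its own median over the 12 libraries on the log2 scale. The median deviation of the 10 genes was −0.66 in NK11, against −0.15 to 0.26 in the other 11 libraries. The share of ribosomal RNA in NK11, 78.2%, lay within the range of the others.

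Of 3 lists of spiny neuron markers, that shared by both kinds of spiny neuron was higher in the libraries labelled TAAR5-KO. The markers shared by both kinds of spiny neuron (10 genes, all 10 tested and none of them at 0) summed to 317 to 375 CPM in the libraries labelled TAAR5-KO and to 286 to 319 in those labelled WT other than NK11, in which they summed to 198. Their mean log2 CPM was 0.26 higher in the libraries labelled TAAR5-KO (two-sided exact permutation test, p = 0.00866, adjusted over 10 lists p = 0.0289) and 0.16 higher without NK11 (exact p = 0.0195), with 10 of 10 fold changes above 0 and none past the edgeR threshold. Markers of D1 spiny neurons (6 genes) differed by 0.21 (exact p = 0.167) and by 0.098 without NK11 (exact p = 0.329). Those of D2 spiny neurons (6 genes) differed by 0.13 (exact p = 0.275) and by 0.038 without NK11 (exact p = 0.558), and NK11 had the lowest mean of the 12 libraries in all 3 lists. In bulk tissue, fewer cells of a type and less RNA per cell cannot be told apart. Of the markers, 2 of the shared list and 1 of the D2 list are in the study's modules.

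Markers of astrocytes and microglia were lower in the libraries labelled TAAR5-KO. Astrocyte markers (8 genes) summed to 990 to 1204 CPM in the libraries labelled TAAR5-KO and 1103 to 1294.5 in those labelled WT, and their mean log2 CPM fell by 0.33 (exact permutation test, p = 0.00216, the smallest that 924 assignments of the libraries can give, adjusted p = 0.0216), with Gja1 and S100b past the edgeR threshold. Microglia markers (6 genes) summed to 24.6 to 35 against 34.4 to 43.5 CPM, and their mean log2 CPM differed by −0.34 (exact p = 0.00649, adjusted p = 0.0289), with 2 of the 6 past the edgeR threshold. Oligodendrocyte markers (7 genes) summed to 580 to 713 against 620 to 792 CPM, with a mean difference of −0.22 (exact p = 0.0260, adjusted p = 0.0649). Lists for endothelium (−0.10, exact p = 0.348), ependyma (−0.12, exact p = 0.781), cortical pyramidal neurons (0.04, exact p = 0.909) and interneurons (−0.08, exact p = 0.504) did not pass. Cortical markers summed to 30.5 to 101 CPM in the libraries labelled TAAR5-KO and 36.6 to 113 in those labelled WT, so their summed level varied more than 3-fold within each group. The part of cell type content in the fold changes of the cascade genes was not tested apart from 1 fit with the mean of the shared spiny markers as a covariate, chosen after seeing the data. In it the log2 fold changes of the 10 genes lay between −0.25 (Ppp1r1b) and 0.26 (Arpp19), with 7 of them below 0 and the smallest adjusted p at 0.628.

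Outside the 10, the other genes of the cascade also gave no call. Of 105 genes listed by role, 102 were tested (Drd3, Adcy4 and Pde4c were under the filter), and 0 passed at an adjusted p under 0.1 in edgeR, while 6 passed in DESeq2, where 1.27% of all features did. At an unadjusted p under 0.05, 12 were higher and 6 lower, beside 6.38% and 5.54% of all features, and the median log2 fold change over the list was 0.02. DESeq2 called, among others, Rgs4, Akap11 and Ppp3ca as higher and Gnas and Gnai2 as lower, genes named here after their values were seen.

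Among the receptors 9 of 11 had a fold change above 0, and the median log2 fold change of the role was 0.15. In the G protein subunits and chaperones, 9 of 14 were below 0. Gnb1, the beta subunit with the highest level per kilobase of that role, had a log2 fold change of −0.13 ± 0.10 (adjusted p = 0.661, edgeR). Of the RGS proteins and anchors 7 of 10 were above 0, led in level by Rgs4 at 15.8 CPM per kilobase, a regulator of Gi and Gq signals that stood at 54.6 ± 8.58 against 43.1 ± 6.27 CPM, a log2 fold change of 0.34 ± 0.12 (adjusted p = 0.152, edgeR) that was 0.33 without NK11. For the other cyclases, 3 of 7 were above 0, and the most abundant per kilobase, Adcy1, had 0.15 ± 0.24.

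Further down the cascade the list was split. Among the genes of protein kinase A 5 of 11 were above 0, and Prkar1a, the most abundant regulatory subunit per kilobase at 15.6 CPM per kilobase, had a log2 fold change of 0.05 ± 0.09. The other targets of cyclic AMP had 6 of 9 above 0, with Rapgef4, an exchange factor for the small G protein Rap, at 0.03 ± 0.13. Of the other phosphodiesterases 7 of 13 were above 0, with Pde1a at 0.19 ± 0.18. Among the phosphatases 8 of 16 were above 0. Ppp3r1, the regulatory subunit of calcineurin, which removes a phosphate from DARPP-32, was the most abundant per kilobase at 25.3 CPM per kilobase and had a log2 fold change of 0.19 ± 0.11. Of the kinases and homologs of the substrates 2 of 8 were above 0, with Cdk5r1, the activator of the kinase CDK5, at 0.13 ± 0.11, and of the 3 calmodulin genes only Calm2 was above 0, at 0.26 ± 0.11 (adjusted p = 0.309, edgeR). Of the genes named here, Prkar1a, Akap11, Calm2 and Ppp3ca are in the study's modules.

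**Figure D3:**
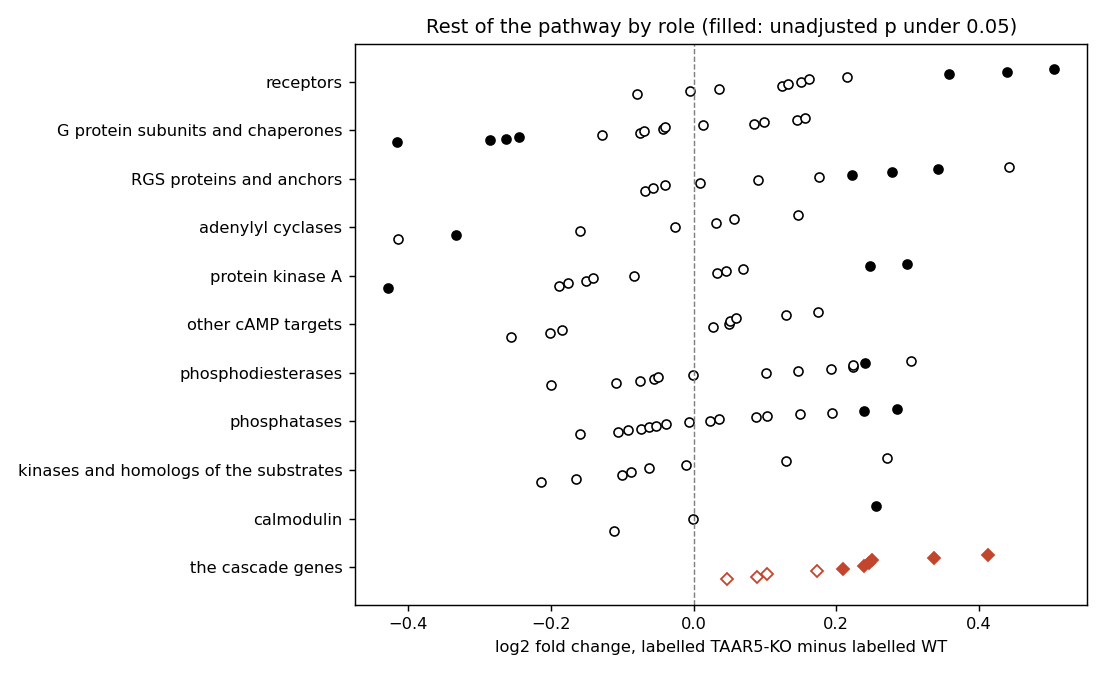
Log2 fold change, labelled TAAR5-KO minus labelled WT (horizontal axis), of the 102 tested genes of the wider pathway by role (circles) and of the 10 cascade genes (red diamonds). Filled symbols have an unadjusted p under 0.05 in edgeR, the roles spread on both sides of 0, and no gene drawn passed the adjusted threshold.

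Seen within their families, 4 cascade genes had the highest mean level of their family. Per kilobase, Arpp19 made up 79.9 ± 1.73% of the sum of Arpp19 and Ensa, its close homolog, in the libraries labelled TAAR5-KO and 77.4 ± 1.34% in those labelled WT (SD, n = 6 each). Rgs9 made up 61.0 ± 6.21% and 53.2 ± 10.2% of the 4 RGS proteins of the R7 class, ahead of Rgs7. Adcy5 made up 42.0 ± 7.09% and 38.9 ± 7.89% of the 9 membrane cyclases, ahead of Adcy1, and Pde10a made up 28.9 ± 2.77% and 25.8 ± 3.87% of 15 phosphodiesterases that act on cyclic AMP, ahead of Pde1b at 23.5 ± 2.35% and 22.5 ± 1.86%. This order of means did not hold in NK11, in which Rgs7 (41.9%) exceeded Rgs9 (35.9%), Adcy1 (32.2%) exceeded Adcy5 (25.9%) and Pde1a (22.3%) exceeded Pde10a (19.2%). In the libraries labelled TAAR5-KO, the highest share of Adcy1 (33.0%) was also slightly above the lowest of Adcy5 (32.9%). Without NK11 the WT means were 56.7 ± 6.24% for Rgs9, 41.5 ± 5.22% for Adcy5, 27.2 ± 2.35% for Pde10a and 23.2 ± 0.97% for Pde1b (n = 5), and the differences between the labelled genotypes fell from 7.75 to 4.28, from 3.09 to 0.49, from 3.06 to 1.74 and from 1.06 to 0.39 percentage points. Over 12 libraries these shares differed by less than the larger SD of the groups, except that of Arpp19, whose difference of 2.51 percentage points exceeded it and whose groups overlapped.

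Gnal, Gng7 and Prkar2b came behind another gene of their family. Gnal made up 47.1 ± 2.76% of the sum of Gnal and Gnas, the stimulatory alpha subunit of most other cells, in the libraries labelled TAAR5-KO and 40.7 ± 6.23% in those labelled WT. The groups overlapped, at 43.9% to 51.0% against 28.8% to 45.4%, and the lowest was again NK11, without which the WT mean was 43.1 ± 2.52%. Gnas, the partner in that share, was at 78.3 ± 4.83 CPM against 95.5 ± 12.1, a log2 fold change of −0.29 ± 0.10 (unadjusted p = 0.00396, adjusted p = 0.147, edgeR) and −0.22 without NK11. Gng7 made up 27.3 ± 3.20% and 24.6 ± 4.15% of 12 gamma subunits, behind Gng3, with a WT mean of 26.1 ± 1.69% without NK11. Prkar2b made up 12.5 ± 1.74% and 10.4 ± 1.78% of the 4 regulatory subunits of protein kinase A, behind Prkar1a and Prkar1b. Over 12 libraries the differences of Gnal (6.46 percentage points) and Prkar2b (2.11) exceeded the larger SD of the groups, and that of Gng7 (2.72) did not. Without NK11 the differences were 4.09 for Gnal, 1.63 for Prkar2b and 1.14 for Gng7. Family shares are given as a description, with no test.

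**Figure D4:**
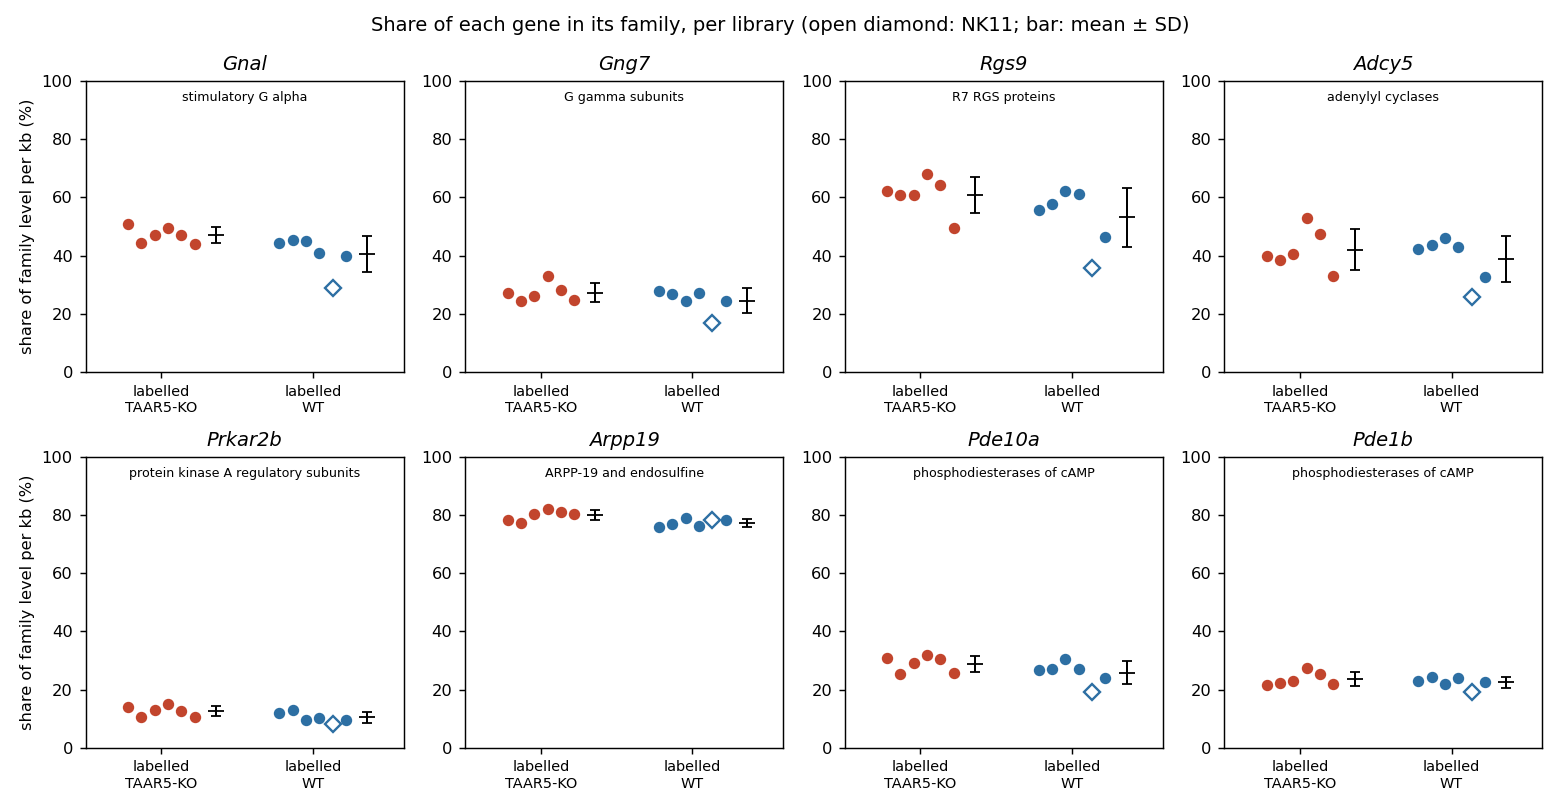
Share of each cascade gene in the summed level per kilobase of its family (vertical axis, percent) in each library, with the mean ± SD per labelled genotype and NK11 as an open diamond. Arpp19 lay between 75.7% and 81.9% in all 12 libraries, while the share of Rgs9 ran from 35.9% in NK11 to 68.1%.

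Across libraries the cascade genes varied together to an extent that hung on NK11. Of the 45 pairs among the 10 genes, 32 had a permutation p under 0.05 after Benjamini-Hochberg adjustment over the pairs for Pearson's r of log2 CPM over 12 libraries, and 2 of 45 did without NK11. With Spearman's rho over 12 libraries, 3 of 45 did. The median r was 0.78 over 12 libraries, 0.72 after subtraction of the genotype means and 0.52 without NK11. The 9 pairs with Arpp19 stood apart over 12 libraries, with 0 passing and r between −0.27 and 0.48. They were less apart without NK11, when r ran from −0.46 to 0.64, the highest with Arpp21. Their median r was then 0.11, against 0.55 for the other 36 pairs, and 0 of the 9 passed without NK11. Most of the passing relations thus rest on that library, which was low for 9 of the genes at once.

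Rgs9 and Pde10a were the closest pair. Over 12 libraries Pearson's r was 0.991 (permutation p = 1e-05, the smallest that 100000 permutations can give, adjusted p = 0.00045) and Spearman's rho was 0.916 (permutation p = 8e-05). The relation held at 0.987 after subtraction of the genotype means, at 0.967 without NK11 (rho = 0.891) and at 0.960 without the 2 libraries farthest from the median of Rgs9. Adcy5 and Pde1b followed, with r = 0.952 (permutation p = 0.0001, adjusted p = 0.00225) and rho = 0.811 (permutation p = 0.00194), 0.956 after subtraction of the genotype means, 0.813 without NK11 (permutation p = 0.00152, adjusted p = 0.0342) and 0.729 without the 2 farthest libraries. Libraries share their scaling factor across genes, which enters every r.

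**Figure D5:**
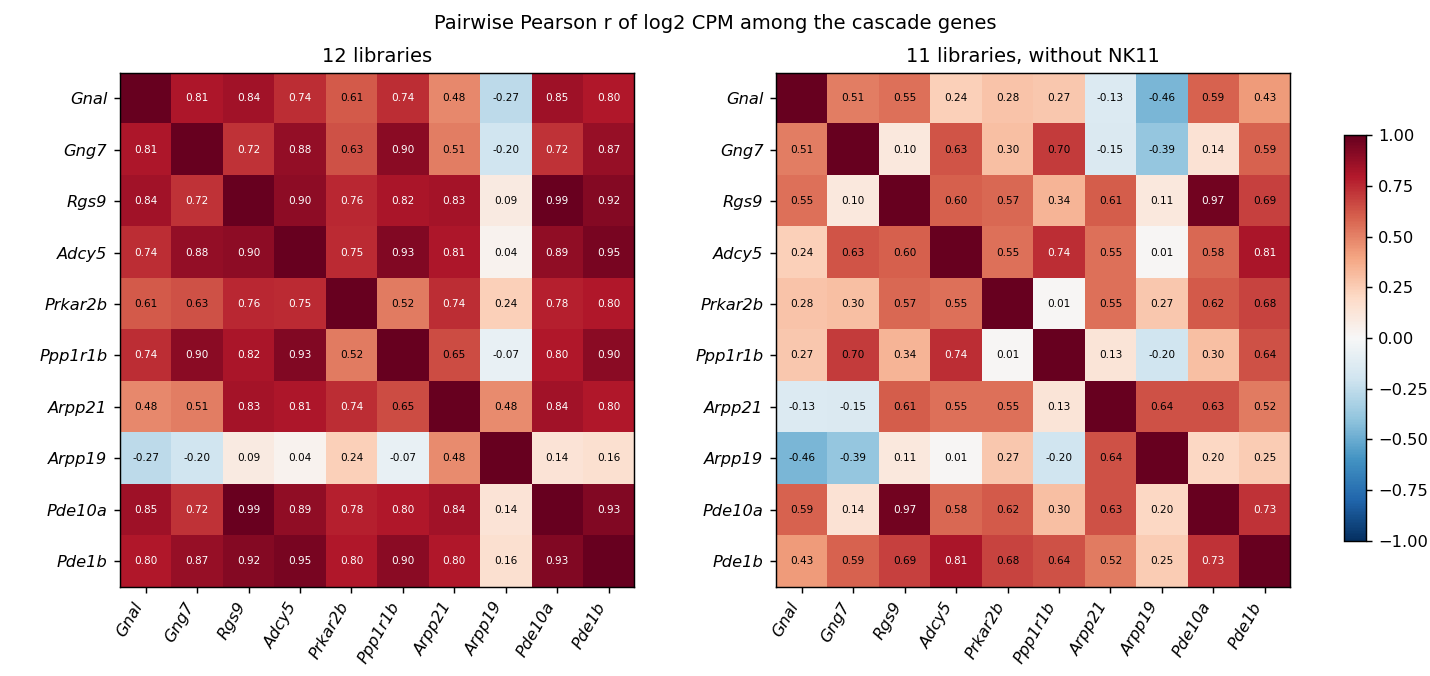
Pearson's r of log2 CPM for every pair of cascade genes (colour from −1 to 1, value in each cell) over 12 libraries (left) and over 11 libraries without NK11 (right). Rgs9 with Pde10a (0.991 and 0.967) stayed the closest pair in both. The row of Arpp19 was near or below 0 for most genes in both, and highest with Arpp21 (0.48 and 0.64).

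The starts of the 4 genes of these pairs are shown because members that move together can be compared in their promoter sequence. RefSeq promoter windows on GRCm38.p6, an older build than that of the counts, were found for 8 of the 10 genes (22 windows), and the 250 bases before each start were searched on both strands. The palindrome of the cyclic AMP response element, TGACGTCA, was in 0 of the 22 windows and in 1.55% of all 32851 windows. Its shorter form TGACG was in 3 windows, of Arpp21 and Gng7, and in 17.8% of all. The GC box GGGCGG was in 1 window each of Adcy5, Gng7, Pde10a, Pde1b, Prkar2b and Rgs9 and in 32.7% of all windows. Pde10a and Pde1b have other windows, 1 and 2 in number, without a GC box, and the windows printed are those that hold it. In the lines below, each window is written 5′ to 3′ on the strand of its gene, and capitals mark the GC box or its reverse complement CCGCCC.
Rgs9, chr11:109298182-109298431, minus strand: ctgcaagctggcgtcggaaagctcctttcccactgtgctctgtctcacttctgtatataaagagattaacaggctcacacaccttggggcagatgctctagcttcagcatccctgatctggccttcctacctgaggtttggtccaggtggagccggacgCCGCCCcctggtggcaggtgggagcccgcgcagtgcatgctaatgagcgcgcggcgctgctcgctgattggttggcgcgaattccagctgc
Pde10a, chr17:8801495-8801744, plus strand: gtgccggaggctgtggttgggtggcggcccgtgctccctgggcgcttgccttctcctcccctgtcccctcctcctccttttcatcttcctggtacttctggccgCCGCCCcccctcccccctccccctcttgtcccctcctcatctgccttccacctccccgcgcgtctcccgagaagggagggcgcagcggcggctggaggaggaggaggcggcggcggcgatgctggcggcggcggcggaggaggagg
Adcy5, chr16:35154614-35154863, plus strand: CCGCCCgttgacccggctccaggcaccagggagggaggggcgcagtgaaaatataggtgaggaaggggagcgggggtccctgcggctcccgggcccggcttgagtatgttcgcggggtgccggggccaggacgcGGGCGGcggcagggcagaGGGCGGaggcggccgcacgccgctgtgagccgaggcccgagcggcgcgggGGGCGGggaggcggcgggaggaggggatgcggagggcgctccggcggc
Pde1b, chr15:103502784-103503033, plus strand: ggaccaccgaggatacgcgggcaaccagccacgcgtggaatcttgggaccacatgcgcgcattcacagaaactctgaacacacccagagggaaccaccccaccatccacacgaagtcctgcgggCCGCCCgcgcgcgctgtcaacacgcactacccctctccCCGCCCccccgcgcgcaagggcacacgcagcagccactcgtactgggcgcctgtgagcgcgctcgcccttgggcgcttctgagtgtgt
Rgs9 and Pde10a each held 1 box, Pde1b 2 and Adcy5 4, and G and C made up 59.6% of the window of Rgs9, 72.8% of Pde10a, 78.0% of Adcy5 and 67.2% of Pde1b. A match of letters is a description and not a site.

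For each of the 10 genes, the gene outside the list with the most similar profile was taken as that with the highest Pearson's r of log2 CPM over the 12 libraries after subtraction of the genotype means. Strn, which encodes the calmodulin-binding scaffold striatin, was the most similar to both Rgs9 (r = 0.976, 0.926 without NK11) and Pde10a (0.963 and 0.901). Rxrg, a retinoid receptor, was the most similar to both Ppp1r1b (0.946 and 0.726) and Pde1b (0.934 and 0.765), and Adora2a, an adenosine receptor coupled to Golf, to Prkar2b (0.947 and 0.875). The others were Asxl2 for Gnal (0.935, 0.876 without NK11), Bcr for Gng7 (0.890 and 0.679) and Slc4a11 for Adcy5 (0.952 and 0.825). Fcf1 was the most similar to Arpp21 (0.936 and 0.757) and Asns to Arpp19 (0.944 and 0.789). None of these 8 genes passed the comparison between the labelled genotypes, and the smallest adjusted p among them was 0.213 (edgeR), that of Strn, with a log2 fold change of 0.31.

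Counting limits some of these values. The exons of 3 genes overlap a gene on the opposite strand, Ppp1r1b with 1700003D09Rik over 15.7% of its exon bases, Gnal with Mppe1 over 7.63% and Arpp21 with 2900079G21Rik over 5.73%, and the strand setting of the counting is not given in the sources used here. In an annotation other than that of the counts, Pde1b shares 2139 bases at 100% identity with a transcript of its neighbour Ppp1r1a. In the exon coordinates used for the counts, no other feature overlapped Pde1b. In that other annotation, shorter stretches at 95% identity or more were found for every other member except Prkar2b. Adcy5 shared 572 bases with Gm61320 and Arpp19 307 with Gm69477, each at 100%, and Ppp1r1b shared 493 with Gm71798 at 99.0%. Gng7 shared 257 bases at 100% with Gm3828, a pseudogene that lies within Gng7 on the same strand.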

How the data were processed

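The authors removed ribosomal RNA from striatal RNA of 12 mice and sequenced directional libraries. Per the labels, cutadapt 4.1 trimmed the reads, STAR 2.7.11b placed them on GRCm39, and featureCounts 2.0.6 gave the counts. The deposited values are raw counts per gene, neither normalized nor pooled. Strand and multi-mapping settings are not given in the sources used here. A further 12 columns of library counts were not used.

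The groups were 6 libraries labelled TAAR5-KO and 6 labelled WT. Each library was used as a replicate of its label. The 13902 features that reached a CPM of 0.5 in 3 or more libraries were fitted in edgeR 4.0.16 (R 4.3.3) with glmFit and glmLRT. Filter, test and threshold follow the study's methods, which name CPM normalization and no further scaling, and TMM factors were chosen here. The study kept fewer features and called fewer, and most of its calls were lower in TAAR5-KO, where most were higher here. The Benjamini-Hochberg adjusted p threshold was 0.1 over all features. Standard errors come from the same fit, and 95% intervals are 1.96 SE on each side. A prior count of 2 was added for log2 CPM. Marker lists were tested by two-sided exact permutation. Pairs used 100000 permutations. Scripts were tested on simulated data.

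The 10 genes and all lists were chosen with earlier results of these data known. Named besides the 10 were wider pathway genes past the threshold, the most abundant gene per kilobase of each role, the nearest profile of each member, and markers past the threshold, except that the microglia list is not reported gene by gene and a further gene that the rule names is not reported here. Alternatives were the quasi-likelihood test, DESeq2 1.42.0, other scalings, filters, dispersions and covariates, length and GC trends removed, an adjusted p under 0.05, and leaving out each library. Counting error only is covered by a count of 0 read as up to 3 counts.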

Additional observations from a re-analysis of the deposited data

Results flagged for a closer look

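In 4 of the 10 genes, NK11 was set apart from the other libraries labelled WT by more than Dixon's 95% critical value for 6 samples, the measure being its gap to the next library as a share of the range of the group. The values were 0.647 for Adcy5, 0.681 for Ppp1r1b, 0.633 for Arpp21 and 0.819 for Pde1b, each in CPM and each with NK11 as the lowest. NK11 was set apart in this way for 0.252% of all features tested. The 4 values come from a single library, and chance alone sets apart the highest or lowest sample in about 1 in 20 groups. Dixon's ratio was not exceeded in the libraries labelled TAAR5-KO for any of the 10 genes. The log2 fold changes of these 4 genes without NK11 were 0.07 for Adcy5, −0.02 for Ppp1r1b, 0.18 for Arpp21 and 0.15 for Pde1b. NK11 also had the highest mean of the 12 libraries for the astrocyte markers and the lowest for the markers of spiny neurons, and the part of cell content in its low levels was not tested.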

How the results depend on the processing

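None of the 10 cascade genes was called in any of the 27 other settings. No paired analysis was possible because the columns carry no animal numbers. When library size alone set the scale, the median of all features moved to −0.49 and all 10 genes turned below 0, at −0.38 for Gnal, −0.45 for Gng7, −0.078 for Rgs9, −0.35 for Adcy5, −0.31 for Prkar2b, −0.36 for Ppp1r1b, −0.31 for Arpp21, −0.29 for Arpp19, −0.16 for Pde10a and −0.25 for Pde1b, with their median at −0.31, above that of all features. With the spiny marker level as a covariate, chosen after seeing the data, Gnal (−0.13), Gng7 (−0.24), Rgs9 (−0.057), Adcy5 (−0.15), Ppp1r1b (−0.25), Pde10a (−0.041) and Pde1b (−0.052) turned. Leaving out each library gave −0.047 to 0.10 for Gng7 and −0.020 to 0.14 for Ppp1r1b, and the quasi-likelihood test without NK11 gave −0.046 and −0.020.

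Features called numbered 229, and 63 with the quasi-likelihood test, 7 with library size only, 93 with no filter, 98 with the ribosomal RNA share as a covariate, 86 with the GC trend removed, 23 with the spiny marker covariate, 12 with the quasi-likelihood test without NK11, 35 with the GC trend removed without NK11, 108 at an adjusted p under 0.05, and 85 (without NK11) to 415 (without NK4) with each library left out. Pathway genes called numbered 0, 6 with DESeq2, and 0 to 3 with each library left out. Pairs past the threshold fell from 32 to 2 without NK11 and to 3 with Spearman's rho in place of Pearson's r, added after seeing the data.

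For marker lists, library size as the only scaling gave −0.29 for D1, −0.36 for D2 and −0.25 for shared spiny markers, −0.84 for astrocytes, −0.72 for oligodendrocytes, −0.82 for microglia and −0.47 for cortical neurons, none with an exact p under 0.05. Leaving out each library gave −0.26 to −0.17 for oligodendrocytes (exact p = 0.0563 without NK10), −0.33 to 0.12 for ependyma and −0.14 to 0.24 for cortical neurons. The cause of these shifts was not tested.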
